A study of Mus musculus with 7 samples.

Results

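The genes described here encode fibulins, proteins of the Sparc family and other matricellular proteins, which are secreted into the extracellular matrix and tune how cells attach to it. The listed symbols were Efemp1, Efemp2, Fbln1, Fbln2, Fbln5, Sparc, Sparcl1, Abi3bp, Postn and Thbs1, 10 in all. Of these, 9 had at least 1 probe set with a single gene symbol and were measured among 18194 genes, with no filter on low values. Where a gene had several, the one brightest on average over the 7 arrays served as its main probe set. Efemp2 was not analysed here, because no probe set carried its symbol in the platform annotation used. The genes were chosen by their knockout and wild type signals on these 7 arrays, so their values in that comparison are a description and no test is read from them.

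RNA came from whole testis of Phf13 knockout mice (3 arrays) and wild type mice (4 arrays) aged 15 to 20 weeks, and was hybridised to Affymetrix expression arrays. The product of Phf13 docks on methylated histone H3 through its PHD finger. The allele, the strain and whether each array is a separate animal are not given in the sources used here, so the spread between arrays may be partly technical. All values are log2 signals, in which a difference of 1 is a 2-fold change, and all differences are knockout minus wild type.

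Fibulins are glycoproteins built from EGF-like repeats and a shared C-terminal domain, and they join elastic fibres, basement membranes and fibronectin networks. Sparc and its relative Sparcl1 bind collagen and loosen cell contacts, while thrombospondins and periostin bind integrins and other receptors on the cell surface. In the testis such matrix surrounds the seminiferous tubules and fills the interstitium between them, where the Leydig cells, vessels and macrophages lie.

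Phf13 itself checked the labels. Its log2 signal was 6.04, 5.83 and 5.71 in knockout 1, 2 and 3 and 8.66, 8.64, 8.73 and 8.54 in wild type 1 to 4. The array medians lay between 5.01 and 5.08 and pairwise correlations of arrays across genes between 0.984 and 0.996. All 13 measured spermatid markers lay above the median gene, as the labelled tissue would have them. In bulk tissue, fewer cells of a type and less RNA per cell cannot be told apart.

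Of the 9 measured genes, 5 were higher in knockout testis and 4 were not. Efemp1 (2.41-fold), Sparcl1 (2.30-fold) and Abi3bp (2.26-fold) stood more than 2-fold above wild type. Sparc (1.57-fold) and Fbln5 (1.38-fold) were higher by less. Fbln1, Fbln2, Postn and the main probe set of Thbs1 stayed within 0.14 of wild type on the log2 scale in either direction. For the first 5 genes every knockout array lay above every wild type array, which held for 12.8% of all genes. The same 5 passed an adjusted p of 0.05 (limma, Benjamini-Hochberg over all 18194 genes) where 9.07% of all genes passed in that direction. None of the 9 passed as lower, as 7.05% of all genes did, and counting both directions 16.1% of all genes passed and 28.0% had groups that did not overlap. A rise of 2-fold or more, found for 3 of the 9, was found for 0.368% of all genes. The median difference of the 9 genes was 0.46 and that of all genes was -0.045. Because this comparison chose the genes, nothing is read from these counts.

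**Figure D1:**
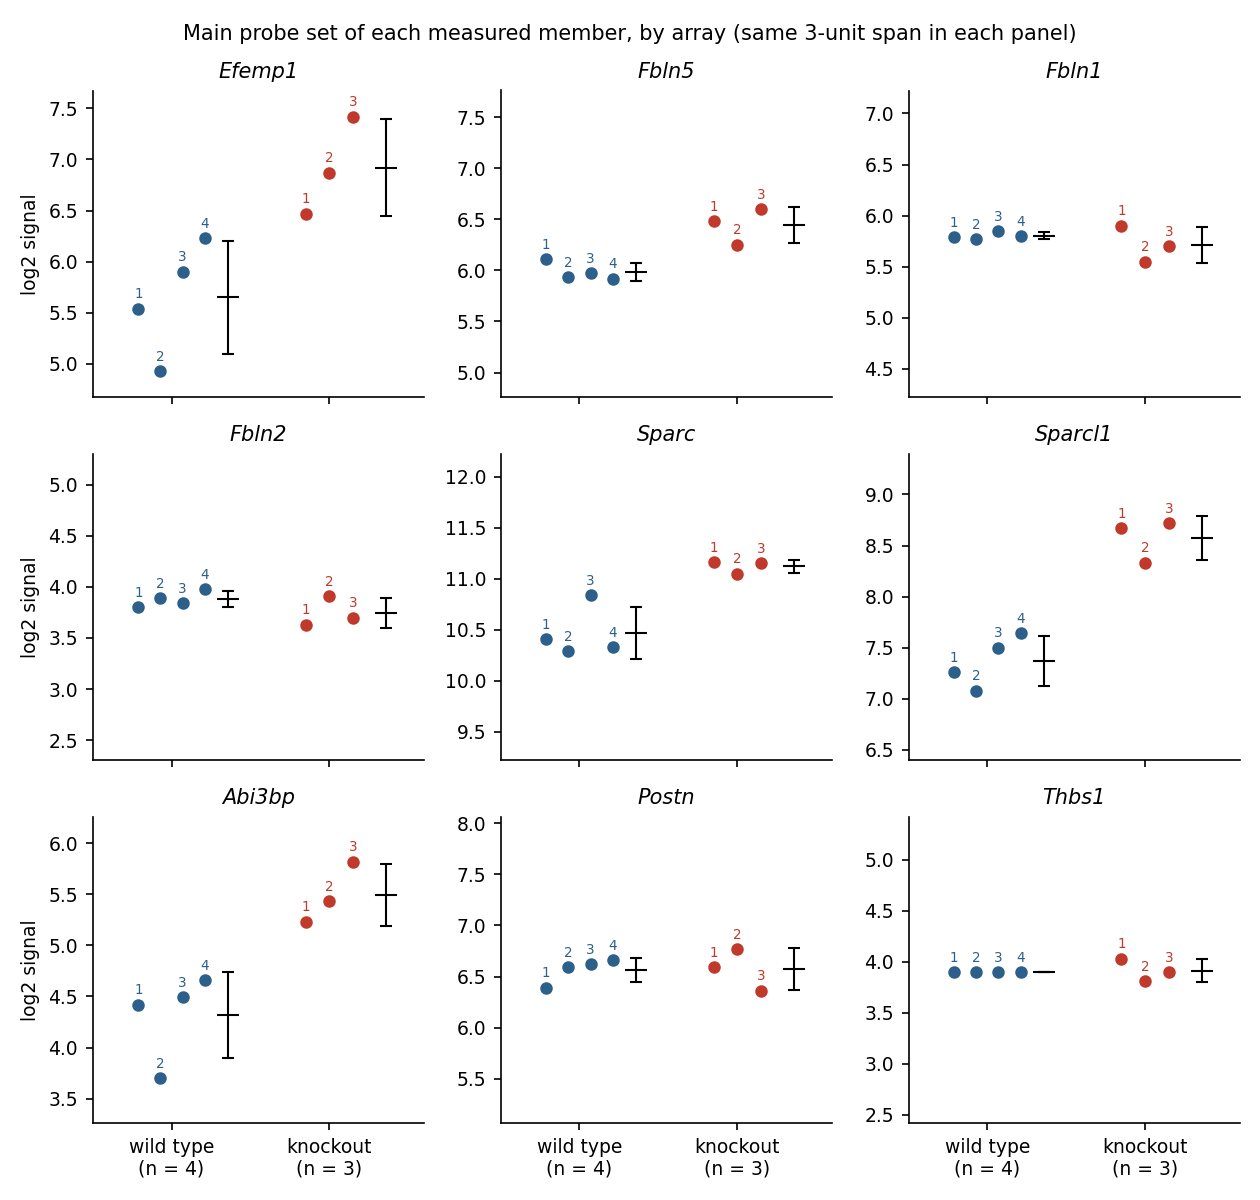
Log2 signal (vertical axis) of the main probe set of each of the 9 measured genes in wild type (blue, n = 4) and knockout (red, n = 3) arrays, with array numbers above the points and black bars for the mean ± SD. The groups are separate for Efemp1, Fbln5, Sparc, Sparcl1 and Abi3bp and overlap for Fbln1, Fbln2, Postn and Thbs1.

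Among the fibulins, Efemp1 encodes a short fibulin of connective tissue. Its log2 signal was 6.47, 6.87 and 7.42 in knockout 1, 2 and 3, and 5.54, 4.93, 5.90 and 6.23 in wild type 1 to 4. The groups did not overlap, but only 0.24 separated the lowest knockout array, knockout 1, from the highest wild type array, wild type 4. The means were 6.92 ± 0.48 (SD, n = 3) and 5.65 ± 0.56 (SD, n = 4), a difference of 1.27 (SE 0.31). This was the widest spread within a genotype among the 9 genes.

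Fbln5 encodes a fibulin needed to assemble elastic fibres. Its signals in knockout 1, 2 and 3 were 6.48, 6.25 and 6.60, and those in wild type 1 to 4 were 6.11, 5.93, 5.97 and 5.92. Knockout 2 lay 0.14 above wild type 1, the nearest wild type array. The difference of means was 0.46 (SE 0.09).

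Fbln1 encodes a fibulin of basement membranes and fibronectin fibrils. It measured 5.90, 5.55 and 5.70 in knockout 1 to 3 and 5.79, 5.77, 5.85 and 5.80 in wild type 1 to 4. The knockout arrays lay on both sides of a narrow wild type range, with a difference of -0.09 (SE 0.08). Fbln2 encodes a large fibulin that binds basement membrane proteins. It measured 3.63, 3.91 and 3.70 in knockout and 3.80, 3.89, 3.84 and 3.98 in wild type arrays, a difference of -0.13 (SE 0.08). These groups overlapped, and all 7 values of Fbln2 fell short of the array medians, so a signal above background was not established.

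Sparc encodes a collagen-binding glycoprotein of remodelling tissue. Its log2 signal was 11.16, 11.05 and 11.15 in knockout 1 to 3 and 10.41, 10.29, 10.84 and 10.33 in wild type 1 to 4. The knockout arrays lay close together (SD 0.06, n = 3), and wild type 3 stood above the other wild type arrays and 0.21 below the lowest knockout array. The difference was 0.65 (SE 0.13).

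Sparcl1 encodes a Sparc relative of vessels and connective tissue, also called hevin. It measured 8.67, 8.33 and 8.72 in knockout and 7.26, 7.08, 7.50 and 7.64 in wild type arrays. Its groups lay furthest apart among the 9 genes, with 0.69 between knockout 2 and wild type 4. The means were 8.57 ± 0.21 (SD, n = 3) and 7.37 ± 0.25 (SD, n = 4), a difference of 1.20 (SE 0.15).

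Promoter sequence is shown for 4 of these genes because Efemp1, Fbln5 and Sparc were higher together while Postn was not. Each run is the 250 bases before the RefSeq start site farthest upstream in GRCm38.p6, written 5′ to 3′ on the gene's strand, with matches to the motifs below in capitals. Start sites were matched for 7 of the 10 listed genes: the 4 shown, Efemp2, Fbln1 and Fbln2. The windows are chr11:28852955-28853204 on the plus strand for Efemp1, chr12:101819120-101819369 on the minus strand for Fbln5, chr11:55420081-55420330 on the minus strand for Sparc and chr3:54359017-54359266 on the plus strand for Postn.
Efemp1: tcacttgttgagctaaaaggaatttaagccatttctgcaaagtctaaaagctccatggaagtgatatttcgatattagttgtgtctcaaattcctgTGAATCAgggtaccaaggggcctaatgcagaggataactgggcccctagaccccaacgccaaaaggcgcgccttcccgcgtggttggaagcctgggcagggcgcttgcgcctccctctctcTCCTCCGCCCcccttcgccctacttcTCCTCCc
Fbln5: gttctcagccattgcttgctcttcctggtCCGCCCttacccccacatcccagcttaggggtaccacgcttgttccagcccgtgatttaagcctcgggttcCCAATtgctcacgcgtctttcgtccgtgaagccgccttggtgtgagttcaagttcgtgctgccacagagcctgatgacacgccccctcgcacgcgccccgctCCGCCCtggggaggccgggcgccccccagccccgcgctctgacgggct
Sparc: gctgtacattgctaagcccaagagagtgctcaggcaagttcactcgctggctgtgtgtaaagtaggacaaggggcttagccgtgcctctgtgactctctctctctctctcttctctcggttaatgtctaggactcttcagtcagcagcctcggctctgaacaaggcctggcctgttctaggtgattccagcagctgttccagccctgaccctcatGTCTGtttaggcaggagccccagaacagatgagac
Postn: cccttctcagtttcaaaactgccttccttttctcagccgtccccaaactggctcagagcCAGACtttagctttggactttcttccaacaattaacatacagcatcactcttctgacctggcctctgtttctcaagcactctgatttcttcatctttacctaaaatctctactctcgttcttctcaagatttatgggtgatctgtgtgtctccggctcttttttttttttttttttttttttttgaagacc

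The motifs were searched on both strands in the same 250-base window of 32851 start sites. The GC box GGGCGG was in the windows of Efemp1, Fbln5, Efemp2 and Fbln2, 4 of 7, and in 32.7% of all windows. In Efemp1 it lay, on the reverse strand, at -29 to -24 from the start, overlapping the GGA repeat GGAGGA at -33 to -28, and a further GGA repeat lay at -7 to -2. The GGA repeat was in 2 of 7 windows, Efemp1 and Fbln2, and in 29.2% of all windows. The Smad box CAGAC was in 4 of 7, namely Sparc at -35 to -31, Postn at -191 to -187, Efemp2 and Fbln1, and in 42.2% of all windows. Efemp1 held an AP-1 site, TGANTCA, at -154 to -148, which 6.75% of all windows held. The CCAAT box CCAAT (33.8% of windows) was in Fbln5 alone among the 7, and the TATA box TATAAA (12.4%) was in 0 of 7. The windows of the 3 genes that were higher differed in base composition: Fbln5 held 21 CpG dinucleotides, Efemp1 10 and Sparc 4, against a median of 6 over all windows. Of the measured genes that were not higher, Fbln2 held 8, Fbln1 7 and Postn 3. A match of letters describes the sequence and shows no binding.

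Of the other matricellular genes, Abi3bp encodes a matrix protein that binds collagen and integrins. Its log2 signal was 5.23, 5.43 and 5.82 in knockout 1 to 3 and 4.42, 3.70, 4.49 and 4.66 in wild type 1 to 4. All knockout arrays lay above all wild type arrays, by at least 0.57, and wild type 2 was the lowest. The difference was 1.18 (SE 0.23), but the wild type values fell short of the array medians and may be background, so its size is uncertain.

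Postn encodes periostin, a protein of collagen-rich and injured tissue. It measured 6.59, 6.77 and 6.36 in knockout and 6.39, 6.59, 6.62 and 6.66 in wild type arrays. The groups overlapped throughout, with a difference of 0.01 (SE 0.11) whose sign turned to -0.05 after quantile normalization.

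Thbs1 encodes thrombospondin, which activates latent TGF-beta, and its result depended on the probe set. The main probe set, 1450377_at, measured 4.03, 3.81 and 3.90 in knockout arrays and 3.90 in each of the 4 wild type arrays. Identical values in all wild type arrays were found for 63 of the 18194 genes. Its difference was 0.01 (SE 0.07), and its sign turned to -0.02 with each array centred on its median.

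The other probe set with Thbs1 as its only symbol, 1460302_at, had nearly the same overall mean (3.90 against 3.91). It measured 3.99, 4.07 and 4.47 in knockout and 3.47, 3.62, 4.07 and 3.61 in wild type arrays. Knockout 1 lay below wild type 3 and knockout 2 level with it, and the difference was 0.48. One more probe set, 1421811_at, carries the symbols of both Pald1 and Thbs1 and can be assigned to neither. It measured 5.11, 4.87 and 6.27 in knockout and 3.88, 3.96, 4.59 and 4.58 in wild type arrays, so its groups did not overlap. All of these values but the 2 of 5.11 and 6.27 lay below the array medians.

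Where a gene had several probe sets, some agreed in their difference and others did not. The 2 brighter probe sets of Sparc differed by 0.65 and 0.69 between genotypes and the 2 of Abi3bp by 1.18 and 1.21. For all 4 of these probe sets the knockout arrays lay above the wild type arrays. The remaining Sparc probe set, 1458204_at, with a mean log2 signal of 5.67, gave a difference of -0.04, and the second of Fbln5, 1446377_at, with a mean of 3.70, gave -0.06. The 3 probe sets of Fbln1 gave -0.17, -0.14 and -0.09, each with overlapping groups. Efemp1, Sparcl1 and Postn had 1 probe set each, so nothing on these arrays checks their values. Probe sets of a gene share the arrays and are not replicates.

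**Figure D2:**
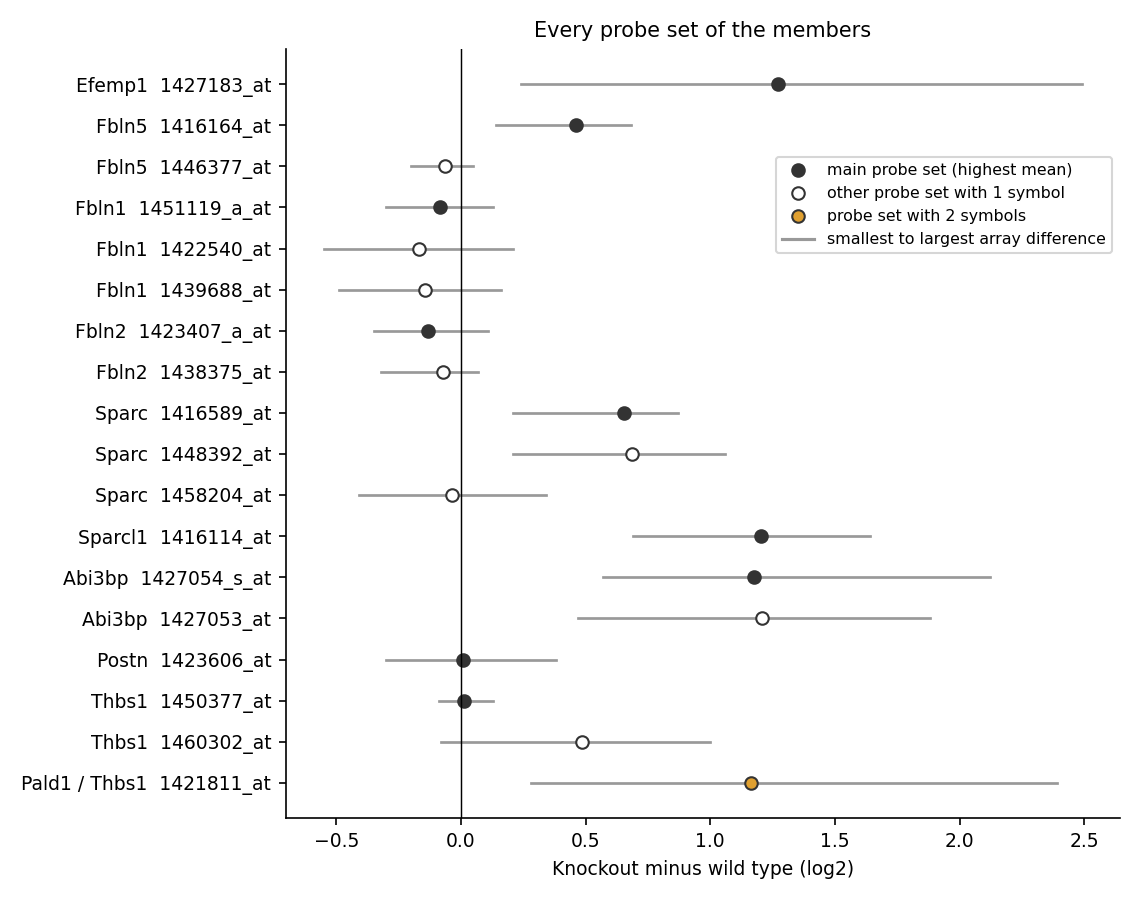
Difference between knockout and wild type means (horizontal axis, log2) for all 18 probe sets of the measured genes, with main probe sets filled black, others with a single symbol open, and the probe set shared by Pald1 and Thbs1 in orange. Grey lines run from the lowest knockout minus the highest wild type array to the highest knockout minus the lowest wild type array, and lines clear of 0 mark groups that do not overlap.

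Within a genotype the arrays were ordered alike for several of these genes. Knockout 3 was the highest knockout array for Efemp1, Fbln5, Sparcl1 and Abi3bp, and wild type 2 the lowest wild type array for Efemp1, Sparc, Sparcl1, Abi3bp and Fbln1. Wild type 4 was the highest wild type array for Efemp1, Sparcl1 and Abi3bp. Array titles open with a number that the labels do not explain. By its leading digits the arrays fall into 3 sets, each with both genotypes, and the difference was also taken within each set. For Efemp1 it was 0.93 between knockout 1 and wild type 1, 1.46 between knockout 2 and the mean of wild type 2 and 3, and 1.19 between knockout 3 and wild type 4. In the same order it was 1.41, 1.04 and 1.08 for Sparcl1 and 0.81, 1.34 and 1.16 for Abi3bp. Sparc gave 0.75, 0.49 and 0.82, and Fbln5 gave 0.37, 0.30 and 0.68. All 15 of these differences were above 0. That outcome was fixed, because for these 5 genes every knockout array lay above every wild type array. Across genes, deviations from the genotype means correlated at 0.10 to 0.32 between knockout and wild type arrays of the same set and at 0.02 or less between those of different sets. With the sets as a block in the model the same 5 of the 9 genes passed, beside 7.71% of all genes in that direction. Fbln1, Fbln2 and Postn each gave values on both sides of 0, and Thbs1 gave 0.13, -0.09 and 0.

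The calls rested on few arrays. With knockout 3 left out, 1 of the 9 genes passed an adjusted p of 0.05 (limma), and 0.528% of all genes passed in that direction. Without knockout 1 and without wild type 1 the count was 2 in each case, beside 4.05% and 2.93% of all genes. Sparcl1 passed in 7 of 7 runs with 1 array left out, Abi3bp and Fbln5 in 5, Sparc in 4 and Efemp1 in 2. The size of the differences moved less: Efemp1 ranged from 1.02 to 1.50, Sparcl1 from 1.11 to 1.33 and Sparc from 0.59 to 0.78. Fbln5 fell to 0.20 and did not pass when its 2 probe sets were averaged. The second of these, 1446377_at, measured 3.58 to 3.78, below the array medians, and may be background.

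**Figure D3:**
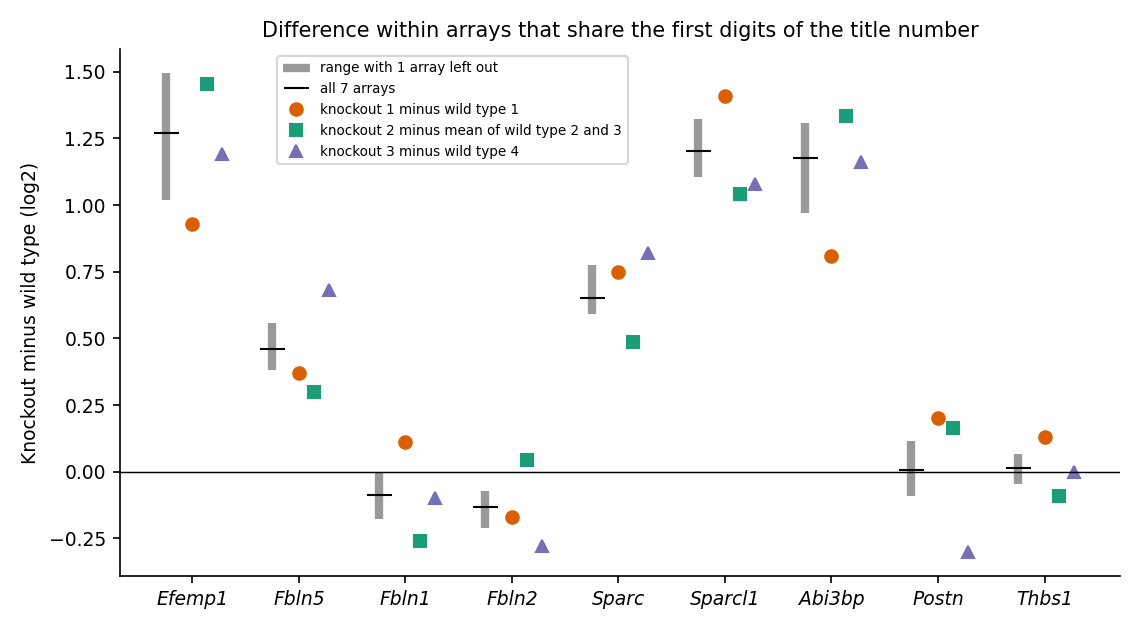
Knockout minus wild type (vertical axis, log2) for each of the 9 measured genes, over all 7 arrays (black dash), with 1 array left out in turn (grey bar, lowest to highest) and within the 3 sets of arrays that share the first digits of the title number (coloured points). The points of Efemp1, Fbln5, Sparc, Sparcl1 and Abi3bp are all above 0, as they must be where the groups do not overlap.

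Profiles over the 7 arrays were compared by the root mean square difference between log2 signals, each centred on the gene's own mean. Genotype and the shared arrays enter this measure, so it describes likeness and tests nothing. Among genes outside the list, Sparcl1 was most like Ogn (0.055), Serpina5 (0.078) and Fabp5 (0.090), against a median of 0.65 over all genes. Efemp1 was most like Cxcl12 (0.18), Hao2 (0.20) and Dpyd (0.21), and Abi3bp was most like Pawr (0.12), Dpyd (0.14) and Pdgfra (0.14). Within the list, Efemp1 and Abi3bp were the closest pair among those compared, at 0.17, and Sparcl1 differed from Abi3bp by 0.23 and from Efemp1 by 0.33.

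Relatives of these genes in family or function gave few calls, in both directions. Of 22 measured relatives, 1 rose and 2 fell (limma, adjusted p of 0.05), 13.6% of them against 16.1% of all genes, and their median difference was -0.07. Ccn2, a growth factor-binding matricellular gene, measured 8.53, 8.28 and 8.58 in knockout and 7.80, 7.70, 8.07 and 8.13 in wild type arrays. It rose by 0.54 (SE 0.12, adjusted p = 0.0254), with all knockout arrays above all wild type arrays. Comp, a thrombospondin best known from cartilage, measured 9.71, 9.84 and 9.59 in knockout and 10.07, 10.22, 10.02 and 10.03 in wild type arrays. It fell by 0.37 (SE 0.08, adjusted p = 0.0228), and its groups did not overlap either. The thrombospondin gene Thbs3 fell by 0.34 (SE 0.10, adjusted p = 0.0474). The Sparc relatives Spock1, Spock2, Spock3, Smoc1, Smoc2 and Fstl1 and the fibulin relatives Fbln7 and Hmcn1 did not pass, with differences from -0.21 for Smoc2 and Hmcn1 to 0.34 for Spock2. No relative passed (limma) without knockout 1, knockout 3, wild type 1 or wild type 2 in turn, and 5 had an unadjusted p under 0.05 in each of those runs.

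Elastic fibre genes, whose products many fibulins bind, were called about as often as other genes. Of 16 measured, 1 rose and 2 fell, 18.8% of them against 16.1% of all genes, with a median of -0.06. With the title-number sets as a block 2 rose and 1 fell. Ltbp1, which tethers latent TGF-beta to microfibrils, rose by 0.68 (SE 0.11, adjusted p = 0.0128), from 5.11, 4.93, 4.83 and 5.04 in wild type arrays to 5.42, 5.70 and 5.85 in knockout arrays. These wild type values lay near the array medians, so the size of the rise is uncertain. The cross-linking enzyme gene Loxl1 fell by 0.45 (SE 0.08, adjusted p = 0.0148), and its highest knockout array (6.60) lay below its lowest wild type array (6.80). The microfibril gene Fbn2 fell by 0.39 (SE 0.10, adjusted p = 0.0326). The elastin gene Eln had a difference of -0.12 (adjusted p = 0.331). Without knockout 3 the count was 0 (limma), with 3 at an unadjusted p under 0.05.

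Cell surface receptors for matricellular proteins were higher in part. Of 18 receptor genes 8 rose and 0 fell, and 9.07% of all genes rose; the median difference of the 18 was 0.31. Cd36, a thrombospondin receptor that also takes up fatty acids, measured 7.99, 8.27 and 8.53 in knockout and 6.88, 7.17, 7.19 and 7.80 in wild type arrays, and rose by 1.00 (SE 0.21, adjusted p = 0.0199). Wild type 4 was its highest wild type array. The integrin genes Itgb1 (0.59, SE 0.08), Itga6 (0.73, SE 0.13) and Itgav (0.67, SE 0.13) rose, with adjusted p-values of 0.0116, 0.0143 and 0.0170. The collagen receptor genes Ddr1 (0.63, adjusted p = 0.0725) and Ddr2 (0.15, adjusted p = 0.184) and the Sparc-binding receptor gene Stab1 (0.31, adjusted p = 0.132) did not pass. With the title-number sets as a block 4 passed as higher, beside 7.71% of all genes. The count was 4 without knockout 1, 1 without knockout 3, 2 without wild type 1, 3 without wild type 2 and 4 without wild type 4. In those runs 4.05%, 0.528%, 2.93%, 5.27% and 7.88% of all genes rose.

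Genes of TGF-beta signalling, which thrombospondin and latent TGF-beta binding proteins regulate, gave 5 rises and 1 fall among 18 measured, with a median of 0.21. Of all genes in the same fit, 9.07% rose and 7.05% fell. The co-receptor gene Tgfbr3 measured 8.99, 8.65 and 8.68 in knockout and 8.15, 7.94, 8.09 and 8.20 in wild type arrays and rose by 0.68 (SE 0.10, adjusted p = 0.0116). The receptor gene Tgfbr2 rose by 0.56 (SE 0.09, adjusted p = 0.0121), the ligand gene Tgfb3 by 0.57 (SE 0.11, adjusted p = 0.0163) and the signal transducer gene Smad4 by 0.49 (SE 0.10, adjusted p = 0.0183). The decoy receptor gene Bambi was the 1 that fell (by 0.29, SE 0.07, adjusted p = 0.0258), and no gene of the list passed as lower in any run with 1 array left out except that without wild type 3. The genes that rose numbered 3 without knockout 1, knockout 3 or wild type 1 (limma), beside 4.05%, 0.528% and 2.93% of all genes.

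Markers of several somatic cell types were higher in the same arrays, where 9.07% of all genes rose and 7.05% fell. Of 14 markers of interstitial stroma and fibroblasts, 8 rose and 0 fell, with a median of 0.63. Their summed linear signal was 2466 to 2852 in knockout and 1212 to 1720 in wild type arrays, and it was lowest within each genotype in knockout 2 and wild type 2. Igfbp3 (1.43) and Bgn (0.60) were among the 8. The wild type signals of Igfbp3, 4.26 to 5.13, lay near or below the array medians, so the size of its difference is uncertain. Differences were above 0 for 10 of the 14. Pi16 (-0.345, the lowest of the list), Mfap5 (-0.21), Col1a1 (-0.19) and Lum (-0.06) were below 0 and did not pass. Of 15 Sertoli markers 12 rose and 0 fell (median 0.62, summed signal 13766 to 15142 against 8205 to 10723), among them Rhox5 (0.73) and Wt1 (0.78). Espn (0.46), Fshr (0.36) and Amh (-0.17) did not pass. Of 9 Leydig markers 4 rose and 0 fell (median 0.61, 7814 to 9644 against 4853 to 6533), among them Igf1 (1.14) and Cyp11a1 (0.58). Star (0.93), Hsd3b1 (0.90), Hsd17b3 (0.80), Fdx1 (0.19) and Scarb1 (-0.04) did not pass.

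Of 12 peritubular myoid and smooth muscle markers 5 rose and 0 fell (median 0.38, summed signal 3609 to 3905 against 2608 to 2966), with Acta2 at 0.62 and Mylk at 0.92. Differences were above 0 for 9 of the 12. Tagln (0.38), Myh11 (0.38), Smtn (0.24) and Cnn1 (0.24) did not pass, and each was highest in knockout 2. Actg2 (-0.12), Des (-0.025) and Lmod1 (-0.021) were below 0 and did not pass. Of 12 macrophage markers 6 rose and 0 fell (median 0.41, 1436 to 2262 against 1053 to 1342), with Lyz2 at 0.87 and Ctss at 1.11. Cd68 (0.465), C1qb (0.29), Adgre1 (0.26), Cx3cr1 (0.255), Cd14 (0.23) and Fcgr1 (-0.085) did not pass. The macrophage count was 3 with quantile normalization, 3 with every probe set tested and 2 with the title-number sets as a block. The myoid count was 3 with the probe sets of a gene averaged, and the Leydig count 7 without the dimmest genes. Without knockout 3 the numbers that rose were 1 for stroma, 3 for Sertoli, 2 for Leydig, 3 for myoid and 0 for macrophage markers (limma, with 6 macrophage markers at an unadjusted p under 0.05). In that run 0.528% of all genes rose. Without wild type 1, 7 Sertoli and 3 myoid markers rose. Without knockout 1, wild type 1 or wild type 2, 2 Leydig markers and 1 macrophage marker rose in each run, and without wild type 4, 2 macrophage markers did. The share of all genes that rose was 4.05%, 2.93%, 5.27% and 7.88% in these runs.

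Of 11 endothelial markers 0 passed (limma) and 0 had an unadjusted p under 0.05 (median 0.04, summed signal 381 to 418 against 390 to 418), and 1 of the 11 had a mean above that of the median gene. Of 9 epididymis and rete markers 0 passed and 1 had an unadjusted p under 0.05 (132 to 325 against 150 to 202), and 0 of 9 lay above the median gene. Their summed signal was highest in knockout 2, at 325, against 132 in knockout 1 and 176 in knockout 3. With the title-number sets as a block 1 of these 9 rose. Of 6 fat cell markers 0 passed and 0 had an unadjusted p under 0.05 (338 to 874 against 335 to 545, highest in knockout 2). Among germ cell markers, 1 of 8 in spermatogonia rose (Dmrt1, 0.35), 4 of 10 in spermatocytes fell (Aurkc by 0.76, Ccna1 by 0.37) and 3 of 13 in spermatids fell (Spem1 by 0.32, Crem by 0.26). Over all genes 9.07% rose and 7.05% fell. The summed signals were 2096 to 2213 against 1876 to 2169 for spermatogonia, 12226 to 14722 against 14319 to 15125 for spermatocytes and 76887 to 78365 against 79386 to 84142 for spermatids. These calls also depended on the model: with quantile normalization 0 spermatid markers passed, with every probe set tested 1 did, and with the title-number sets as a block 0 spermatid and 0 spermatogonia markers did (limma, with 4 spermatid and 2 spermatogonia markers at an unadjusted p under 0.05 with the block, and 4 spermatid markers with quantile normalization). Without knockout 3 the 3 counts were 0, 1 and 0, as they were without knockout 1, wild type 1 or wild type 2 (limma, with 1 or 2 spermatogonia and 3 or 4 spermatid markers at an unadjusted p under 0.05). Without wild type 4 they were 0, 3 and 0 (limma, with 1 spermatogonia and 5 spermatid markers at an unadjusted p under 0.05), without wild type 3 they were 1, 2 and 2, and without knockout 2 they were 1, 5 and 1. Of all genes, 0.962% passed in either direction without knockout 3, and 5.47%, 4.07% and 7.50% without knockout 1, wild type 1 and wild type 2. The part of these cell types in the higher signals of Efemp1, Sparcl1, Abi3bp, Sparc and Fbln5 was not tested.

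**Figure D4:**
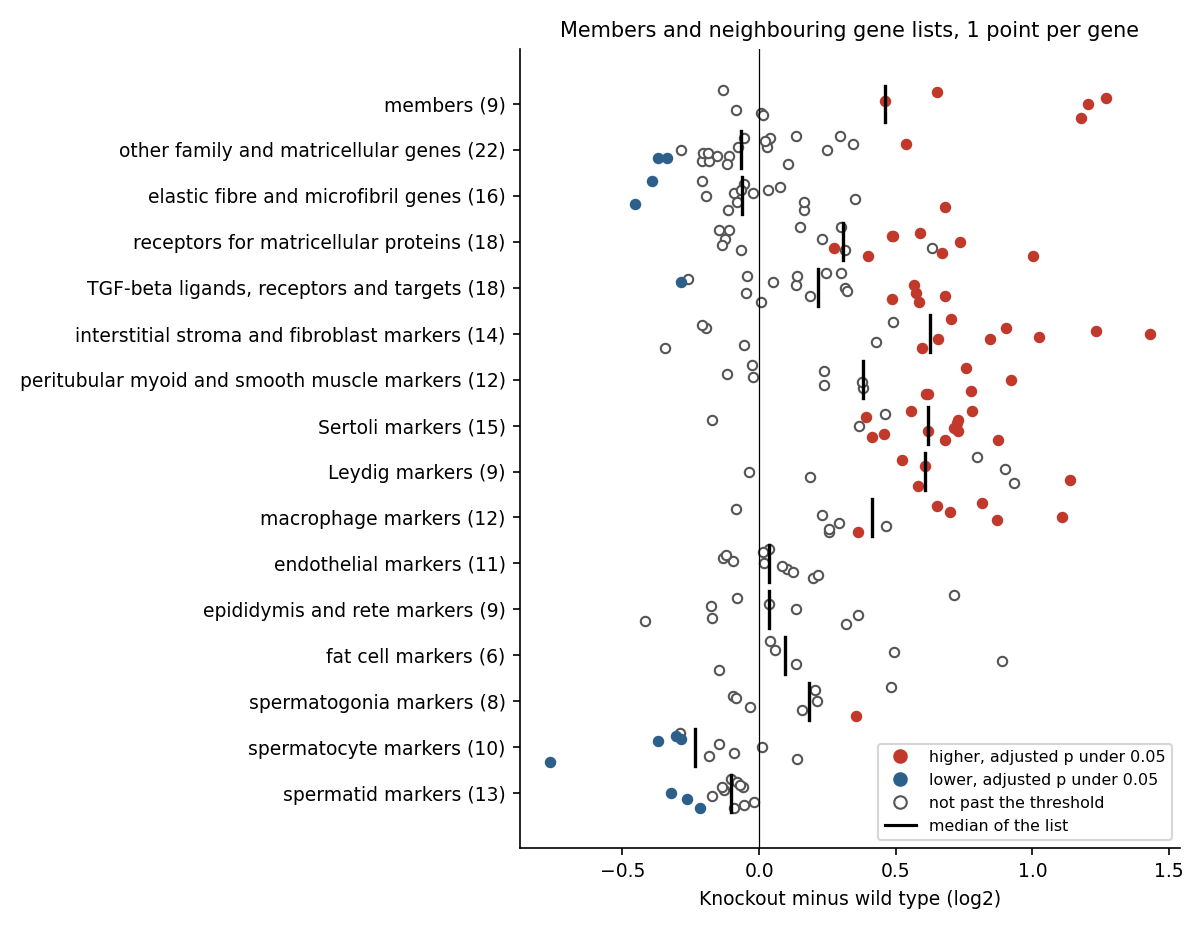
Knockout minus wild type (horizontal axis, log2) for each gene of the members, of 4 neighbouring lists and of 11 cell type marker lists, with the number measured in brackets. Red and blue points passed an adjusted p of 0.05 (limma, over all genes) as higher and lower, open points did not, and black bars mark each list's median, which is 0.46 for the members, -0.07 for their relatives and 0.63 for stroma markers.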

How the data were processed

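Total RNA was extracted with Trizol and 2 ug was labelled with biotin as cRNA, per the labels' protocols. The values the authors deposited for 45101 probe sets on 7 arrays are log2 signals, as their range shows. Per the submitters' processing notes, the software was Affymetrix Expression Console 1.4.1. Summarisation, background correction and normalization are not given in the sources used here, and no normalization was added. Arrays carry no read depth, and their number limits the precision.

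Probe sets were named from GEO's platform annotation: 34958 had 1 symbol, 932 several and 9211 none there. Genotypes, taken from the titles, were the only term of a linear model in limma 3.58.1 (R 4.3.3) with eBayes moderation. Tests were two-sided, with Benjamini-Hochberg adjustment over 18194 genes and a threshold of 0.05. The fit was tested on simulated data. Promoters came from RefSeq's GRCm38.p6 table.

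The members and lists were chosen with earlier results of these data known. Named beside them were up to 4 genes per neighbouring list and 2 per cell type list, past the threshold with the smallest p, and 3 like genes for each of the 3 members with the largest difference, leaving out predicted and clone names. Other list members, including those named as not passing, were picked after their values were seen.

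Alternatives covered scaling, dim genes, probe sets, eBayes settings, array weights, blocks and left-out arrays. Leaving out knockout 3 with wild type 4, and the other Thbs1 probe set, were added after seeing the data.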

Additional observations from a re-analysis of the deposited data

Results flagged for a closer look

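A signal outside the measured genes stood above wild type. The probe set 1421811_at, which the annotation assigns to both Pald1 and Thbs1 and which the fit over single-symbol probe sets left out, was higher in every knockout array than in every wild type array, with a difference of means of 1.16 on the log2 scale. Its nearest arrays were knockout 2 (4.87) and wild type 3 (4.59). Dixon's test on the 4 wild type arrays called no outlier in the 8 measured genes it could be run on; Thbs1, with the same value in all 4, could not be tested.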

How the results depend on the processing

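With 1 array left out in turn, the number of genes past the threshold ranged from 175 to 2574 (all arrays 2934), that of the members from 1 to 5 (5), of their relatives from 0 to 2 (3), of elastic fibre genes from 0 to 3 (3), of receptors from 1 to 8 (8) and of TGF-beta genes from 3 to 6 (6). Without both knockout 3 and wild type 4 it was 4 over all genes and 0 for the members, for each of the 4 lists and for every cell type list (limma), with 5 members, 5 relatives, 4 elastic fibre, 10 receptor and 7 TGF-beta genes at an unadjusted p under 0.05. Without the dimmest 50% of genes 3 members were tested and 2 passed as higher, beside 16.8% of all genes tested there. With the title-number sets as a block 4 receptors passed as higher, beside 7.71% of all genes. With the replicate block the TGF-beta count was 3 (0 lower) and the members' count stayed at 5. In that fit 8.98% of all genes rose and 12.6% passed in either direction. With the same block 2 spermatocyte, 0 spermatid and 0 spermatogonia markers passed (limma, unadjusted p under 0.05 in 5, 4 and 2). Wild type 4 is the only array numbered 4, so this block leaves it no part in the genotype difference. Deviations of same-numbered arrays correlated at 0.18, 0.10 and -0.14, and those of arrays of a title-number set at 0.10 to 0.32. The arrays numbered 1 and 2 also share title-number sets, so these values cannot decide whether the replicate numbers pair the arrays. The cause of the changes in these counts was not tested. Signs turned in members that did not pass: Postn to -0.054 with quantile normalization and -0.0225 with median centring (-0.09 to 0.115 with 1 array left out), and Thbs1 to -0.0175 with median centring (-0.045 to 0.065). Apart from the runs that left arrays out, Efemp1, Sparcl1, Abi3bp and Sparc passed in every setting that tested them. Of the tested values of single members under an alternative, 130 kept their side of the threshold without changing sign, 18 lost the call and 6 changed sign; values within title-number sets have no test.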
